A study of Drosophila melanogaster with 4 samples.

Results

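The regions described here are clusters of enrichment for LSD1, a histone demethylase, in the interior of 3L, the left arm of chromosome 3 of Drosophila melanogaster. They come from the authors' list for both replicates together, here the combined list. A cluster was included when its midpoint lay more than 2 Mb inward of either end of the arm sequence of 24543557 bp. This rule gave 1788 of the 9853 clusters of the combined list. Coordinates are 1-based positions of FlyBase release 5, per the file headers. The first member lay from 2021584 to 2022636 and the last from 22483738 to 22484954, and the nearest clusters outside the rule lay from 1967228 to 1970552 and from 22548588 to 22549730.

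Chromatin immunoprecipitation with sequencing (ChIP-seq) was done on nuclei of larvae, at the third instar, of the wild-type strain Oregon-R, with the LSD1 antibody Q3430. The 4 samples are 2 ChIP libraries, replicates 1 and 2, and the 2 input libraries of unselected chromatin that served them. All carried the same genotype and stage, so the design compares LSD1 chromatin with input and one replicate with the other. Whether each replicate had its own batch of larvae is not in the labels, so the spread between replicates may be technical. The labels describe nuclei of homogenised tissue and name no sort, so a cluster is an average over the cell types of the larva.

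LSD1 is encoded in the fly by Su(var)3-3. The enzyme removes methyl groups from a lysine of histone H3 that marks active promoters and enhancers, and it commonly works in a complex with the corepressor CoREST. In Drosophila it is known for its part in heterochromatin formation and in the silencing of developmental genes. At this stage the larva holds both polyploid larval tissues and the diploid imaginal discs from which the adult is built.

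Clusters of the combined list lay over 39.8% of the 3L interior, those of replicate 1 over 27.6% and those of replicate 2 over 30.2%, a mean of 28.9 ± 1.9% for the replicates (SD, n = 2). Replicate 1 had 1050 clusters here, or 51.1 per Mb (95% Poisson interval 48.1 to 54.3). Replicate 2 had 1511, or 73.6 per Mb (interval 69.9 to 77.4), and the combined list had 87.0 per Mb (interval 83.0 to 91.2). Replicate 2 thus had more clusters and a lower median width, 2166 bp against 2503.5 bp. Of its clusters, 510 overlapped none of replicate 1, and their median width was 1598.5 bp. The other way round this held for 172 clusters, with a median of 1647 bp. Clusters overlapping one of the other list had medians of 2955 bp for replicate 2 and 3048 bp for replicate 1. Within either group, overlapping or not, the medians of the replicates were thus closer than those of the whole lists. The authors gave each cluster a single value, read as the log2 of ChIP over input, whose level was not compared between lists. Read numbers are unknown, so a place free of clusters may be one that had too few reads for a call. The intervals cover counting error and take clusters as independent, which neighbouring clusters may not be. With 2 ChIP libraries and no input list no test of a difference was made, and comparisons are descriptions.

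Most bases called in one replicate were also called in the other. On the 3L interior 4.79 Mb lay under clusters of both replicates, which is 84.5% of the bases of replicate 1, 77.2% of those of replicate 2 and 67.6% of the 7.08 Mb under either. The last share was 65.1% on the interior of 2L, 65.9% on 2R, 65.3% on 3R and 63.7% on X, so 3L was close to them. On the 3L interior replicate 1 alone covered 0.876 Mb and replicate 2 alone 1.42 Mb. The combined list was made from both replicates, so its overlap with them is no independent support. It took in all but 129 bp of what the replicates shared, and added 1.28 Mb that neither had. Of the interior, 12.2 Mb (59.3%) had no cluster in any of the 3 lists.

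Cover changed sharply over short distances. In 205 windows of 100 kb the mean of the replicates ran from 0% to 95.5%, with a median of 26.9%. The 10th percentile was 2.86% and the 90th 59.2%, a spread of 56.3 percentage points. Within the 20 full megabases of the interior, differences among the 100 kb windows of the same megabase made up 86.8% of their variance, and differences between megabases 13.2%. Windows without any order along the arm would also have most of their variance within megabases, so this split is only a description. The megabase from 10000001 to 11000000 had 31.4% in replicate 1 and 36.1% in replicate 2, yet its windows ran from 0% to 90.2%. The evenest megabase, from 5000001 to 6000000, was also the poorest, with 12.2% in replicate 1 and 11.2% in replicate 2. Its windows ran from 0% to 29.6%.

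**Figure D1:**
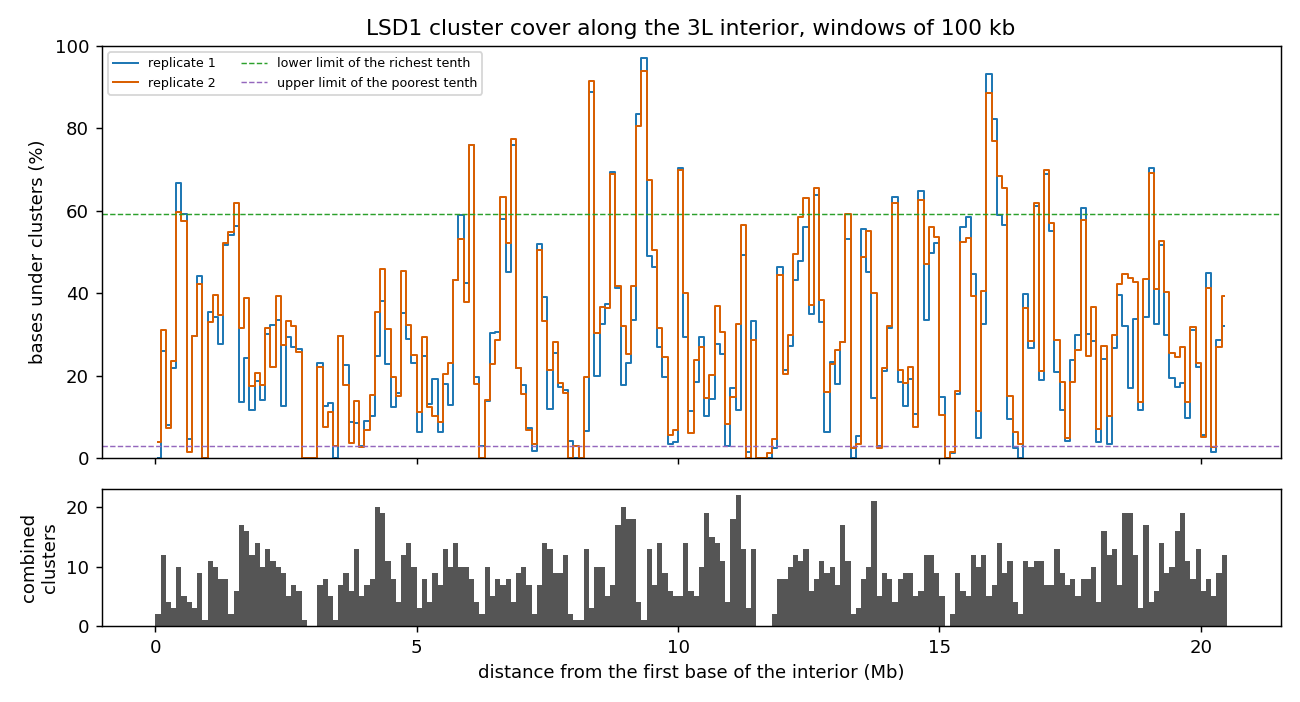
Upper panel: share of bases under clusters in replicate 1 (blue) and replicate 2 (orange) in 205 windows of 100 kb, against distance from the first base of the 3L interior in Mb, with dashed lines at 59.2% (the lower limit of the richest 10% of windows) and 2.86% (the upper limit of the poorest). Lower panel: number of combined clusters centred in each window, from 0 to 22; the tallest peaks of cover do not stand over the tallest bars.

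The narrower the window, the wider this spread was, as averages over less sequence vary more in any list of clusters. It came to 18.4 points for windows of 1000 kb, 42.6 for 200 kb, 67.3 for 50 kb and 88.8 for 10 kb. Of the 2054 windows of 10 kb, 707 (34.4%) held no base of a cluster in either replicate, 92 were covered from end to end in both, and 334 were touched in one replicate only. The cover of neighbouring 100 kb windows was weakly alike, with a Pearson's r of 0.32 in replicate 1 and 0.39 in replicate 2 across 204 pairs of neighbours. Between windows 2 apart it was 0.08 and 0.13, and between windows 5 apart -0.02 and -0.05. The windows of one list share its library and depth, and these coefficients are given as a description.

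Rich and poor windows were much the same in both libraries. Across the 205 windows the cover of replicate 2 followed that of replicate 1 with a Pearson's r of 0.96 and a Spearman's rho of 0.95. The 21 richest windows of each replicate had 16 in common and the 21 poorest 17. The median SD between replicates in a window was 2.37 points. Windows were ranked by the mean of the replicates, so the values of those named next describe that choice.

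The richest window lay from 11300001 to 11400000, with 97.0% under clusters in replicate 1 and 93.9% in replicate 2. The window before it, from 11200001, had 83.5% and 80.5%. Together these 200 kb formed one of 2 runs of adjacent rich windows, at 88.7 ± 2.2% (SD, n = 2), built from only 5 combined clusters, of which 4 were wider than 10 kb. The stretch opened with a cluster from 11206954 to 11217928 and one of 27861 bp from 11220772 to 11248632, which had the highest value of the run, 1.22. A pair of large domains followed, of 60339 bp from 11263516 to 11323854 and of 78159 bp from 11325064 to 11403222. The first of these was a single cluster in replicate 1 and 4 in replicate 2. The second was in 5 pieces in replicate 1 and 6 in replicate 2. A further domain of 39177 bp ran from 11408498 to 11447674, covered to 80.7% in replicate 1 and wholly by a single cluster in replicate 2.

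The longest rich run covered 400 kb, from 17900001 to 18300000, with 72.8% in replicate 1 and 74.9% in replicate 2. It held 35 combined clusters, 10 of them domains over 10 kb and 16 of them found in both replicates. Its left part was nearly solid. From 17913358 to 18041834, 4 domains with values from 0.79 to 1.23 followed one another, and clusters covered 97.6% of these 128477 bp in replicate 1 and 93.5% in replicate 2. The widest gap between these 4 domains was interrupted by a short cluster of 1259 bp, seen on its own in the combined list but lying inside a longer cluster in replicate 1. Just before this chain stood a pair of compact clusters, of 7851 bp from 17893792 and of 7947 bp from 17904570, with values of 1.27 and 1.33. The middle of the run, from 18106014 to 18162284, was broken into 13 combined clusters, with 7 clusters over 39.7% of it in replicate 1 and 11 over 61.9% in replicate 2. On the right, a domain of 52079 bp from 18162356 to 18214434 was the widest of the run. Replicate 1 covered it to 96.8% in 2 pieces and replicate 2 to 90.1% in 5.

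Other rich windows stood alone. The one from 10300001 had 88.8% in replicate 1 and 91.6% in replicate 2, and directly before it the window from 10200001 had 6.62% and 19.7%. This rise of 77.1 points between neighbours was the largest on the 3L interior, where the median step was 13.9 points. The window from 8800001 had 75.9% and 77.5%, that from 8000001 76.0% in each, and that from 12000001 70.4% and 69.9%. In the 8 richest windows the replicates differed by at most 5.22 points. At the limit of the group, the window from 19700001 was just inside with 59.23% and that from 3500001 just outside with 59.13%.

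Rich windows held no more clusters than middling ones. They had from 1 to 14 combined clusters, with a median of 7, while windows that were neither rich nor poor had a median of 9. Across windows, Spearman's rho between the number of clusters and mean cover was 0.32. The median rich window had 61.2% of its bases in such domains. The 20 windows with 15 or more clusters had a median cover of 20.7% in replicate 1 and 32.3% in replicate 2, and their highest mean was 42.1%.

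Replicate 2 covered more than replicate 1 in a larger share of the windows with 10 or more clusters than of those with fewer. Median differences here are replicate 2 less replicate 1, so opposite signs cancel and a small median does not mean close cover. Among the 20 with 15 or more, replicate 2 covered more in 18, with a median difference of 8.45 points over the 20. Among the 65 with 10 to 14, it covered more in 52, with a median difference of 5.13 points. Among the 80 windows with 5 to 9 clusters, replicate 2 covered more in 42 and replicate 1 in 38, with a median difference of 0.39 points. The number of clusters comes from the combined list, which was made from both replicates, so it is not independent of the difference. Of the combined clusters in the crowded windows 25.1% were found in both replicates, against 45.3% in windows with 5 to 9. The window from 20600001 to 20700000 differed most. Its cover was 17.1% in replicate 1, 43.7% in replicate 2 and, by the combined list, 73.5%. That from 15700001 to 15800000 had 14.6%, 40.0% and 56.3%, and that from 13100001 to 13200000, with 22 combined clusters the most crowded, had 11.8%, 32.5% and 50.5%. The 363 members centred in the 20 crowded windows had a median width of 1853 bp. Of these, 91 were found in both replicates, 26 in replicate 1 only, 107 in replicate 2 only and 139 in neither.

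**Figure D2:**
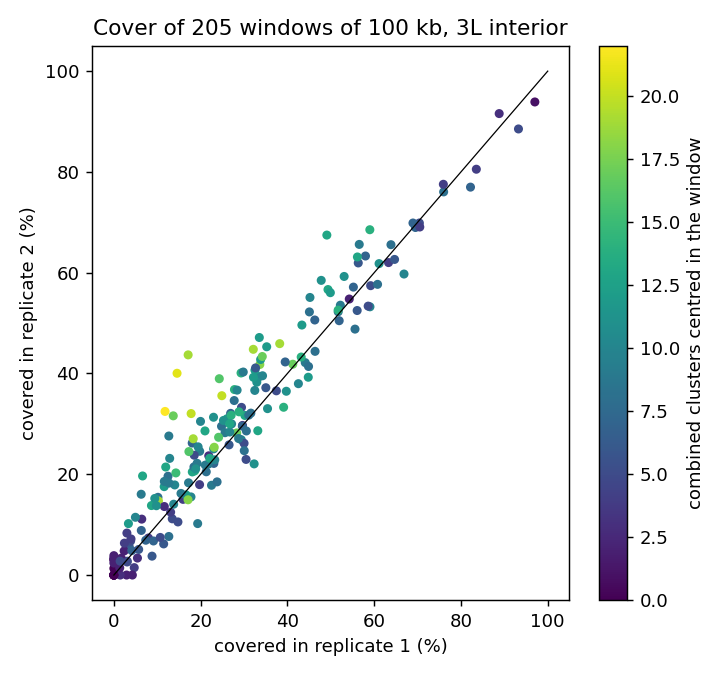
Share of bases under clusters in replicate 2 against replicate 1 for the 205 windows of 100 kb, with the line of equality; colour gives the number of combined clusters centred in the window. Windows lie along the line (Pearson's r of 0.96), and the points farthest above it are windows with many clusters, such as the one with 17.1% in replicate 1 and 43.7% in replicate 2.

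Of the 21 poorest windows, 8 had no cluster base in either replicate, and 5 of the 205 windows had no base of the combined list. The poorest held from 0 to 5 combined clusters each, with a median of 1, and no domain over 10 kb was centred in any of them. Some of them stood in 4 runs of adjacent windows. The run from 4800001 to 5100000 had no cluster in either replicate and 1 short cluster of 1417 bp in the combined list, from 4899086 to 4900502, with a value of 0.33. From 13500001 to 13800000 replicate 1 covered nothing, replicate 2 0.44% and the combined list nothing. The run from 9900001 to 10200000 had 1.42% in replicate 1 and 1.03% in replicate 2. That from 17100001 to 17300000 had 0.67% and 0.71%, and held a cluster of 1869 bp found in both replicates, from 17260240 to 17262108. Of the 8 windows without a base in either replicate, 7 lay in these runs, and the other began at 2900001.

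Measured from cluster to cluster, the longest stretch without a cluster in any list was 280125 bp, from 13493588 to 13773712. Next came 219171 bp from 4900503 to 5119673 and 184741 bp from 17050127 to 17234867. A stretch of 141423 bp, from 4757663 to 4899085, was parted from the second of these by the single short cluster of that poor run. The other 4 of the 8 longest were from 113067 to 135401 bp, and started at 19336207, 9204898, 8163040 and 15365639. Of the 1771 cluster-free stretches, 119 were at least 20 kb long. These held 5.97 Mb, or 29.1% of the interior and 49.0% of its cluster-free bases, while the median stretch was 2257 bp. A poor and a rich run could share a megabase. That from 17000001 to 18000000, with 31.8 ± 0.6% covered (SD, n = 2), held both the empty stretch ending at 17234867 and the start of the longest rich run.

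Domains, meaning combined clusters wider than 10 kb, numbered 192 and made up 10.7% of the members but 49.9% of their bases. Their density was 9.35 per Mb (interval 8.07 to 10.8), their median width 15926 bp and their total extent 4.08 Mb. In the replicate lists fewer clusters reached that width, 132 in replicate 1 and 120 in replicate 2. All 192 overlapped a cluster of each replicate, which a wide cluster does more easily than a narrow one. So did every combined cluster over 10 kb on all sequences, where 599 of the 9853 clusters were 10 to 20 kb wide and 306 were wider. Replicate 1 covered a median of 93.1% of a domain and replicate 2 90.7%, and 73 domains (38.0%) were covered to at least 90% in both. Just inside the width limit, a domain of 10019 bp from 11507674 was covered to 41.3% and 61.2%. Just outside it, a cluster of 9989 bp from 7792870 was covered to 99.9% and 93.8%.

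**Figure D3:**
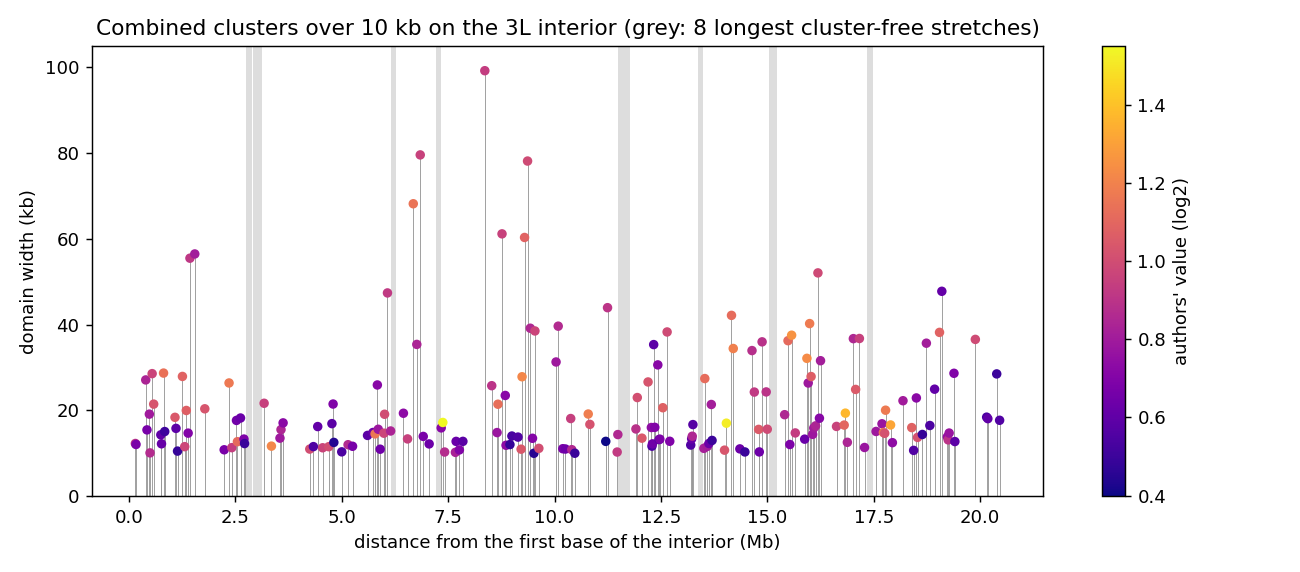
Width in kb of the 192 domains over 10 kb against their distance from the first base of the 3L interior in Mb, coloured by the authors' value on the log2 scale; grey bands are the 8 longest stretches with no cluster in any list. The widest, of 99225 bp, stands among broad domains between 6 and 10 Mb from the start, and the highest value, 1.55, belongs to a domain of 17201 bp.

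The widest domain, from 10309858 to 10409082, took up most of the isolated rich window described above. Its value was 0.94, while 45 of the 192 domains had values above 1. A pair of broad domains lay near each other further left, of 68201 bp from 8644230 to 8712430 and of 79591 bp from 8802054 to 8881644. Each was a single cluster in replicate 1, covering 97.4% and 95.4% of them, and 2 and 4 clusters in replicate 2. Another such pair lay from 3401764 to 3457270 and from 3514836 to 3571328, of 55507 and 56493 bp. A domain of 61181 bp from 10733210 to 10794390 was covered to 98.3% by a single cluster of replicate 1 and to 97.3% by 4 of replicate 2. That from 13221742 to 13265710, of 43969 bp, was a single cluster in each replicate, with 97.2% and 97.8% covered. That from 8048122 to 8095528, of 47407 bp, was in 3 pieces in replicate 1 and 6 in replicate 2. In contrast, the domain of 47787 bp from 21076356 to 21124142 was made of 10 pieces in replicate 1 and 8 in replicate 2, covered to 73.8% and 87.2%. Its value, 0.61, was the lowest of the 12 widest.

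**Figure D4:**
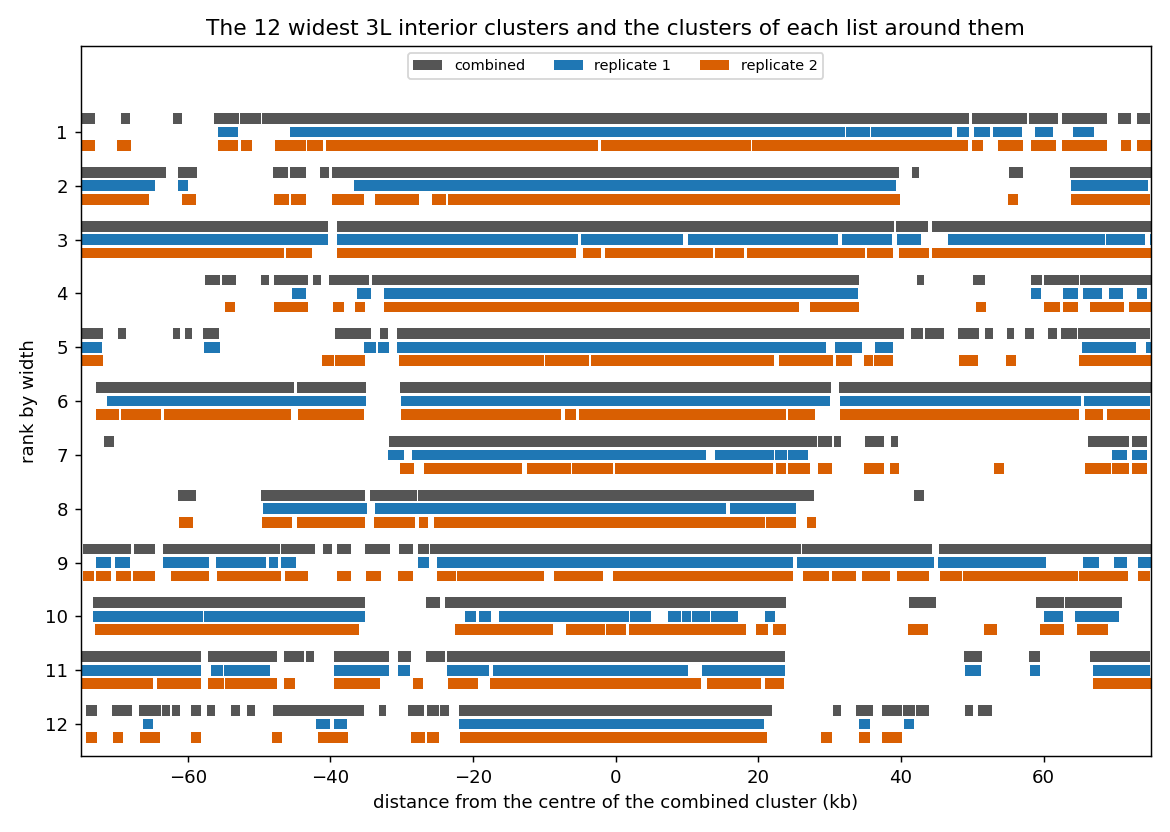
Clusters of the combined list (grey), replicate 1 (blue) and replicate 2 (orange) within 75 kb of the centre of each of the 12 widest members, in order of width from the top; the x axis is distance from the centre in kb. Clusters of both replicates span most of each large domain, replicate 2 more often splits them, and the tenth is in many pieces in each (10 and 8).

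Replicate 2 more often split a domain into pieces. Among the 192 domains, replicate 2 had more pieces in 87, replicate 1 in 24, and 81 had equal numbers, of which 50 were a single cluster in each. For all 676 members found in both replicates, the first cluster of replicate 1 began a median of 172.5 bp inside the left edge of the member and that of replicate 2 195.5 bp inside. At the right edge the medians were 157.5 and 215.5 bp. Within 500 bp of the edge lay 68.2% of the left ends of replicate 1 and 72.3% of those of replicate 2, and 1 in 10 of these ends lay more than 1568 and 1376 bp inside. Across the 192 domains the authors' values of the replicates, taken from the cluster with the largest overlap, had a Pearson's r of 0.79 and a Spearman's rho of 0.80.

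The least supported domains had low values. The one from 13195680 to 13208472, 12793 bp wide, was covered to 29.2% in replicate 1 and 41.6% in replicate 2, and its value of 0.40 was the lowest of all domains. One from 10944112 to 10956162 was covered to 12.8% and 65.8%, and one from 20635698 to 20650100 to 37.7% and 79.4%. In 4 domains replicate 1 covered less than 50%, and in 1 replicate 2 did. These domains were in 3 or more pieces in at least one replicate, where the combined list has a single cluster.

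Some domains lay close to one another along the arm. The median distance from one to the next was 39501 bp, yet 49 of the 191 distances were under 10 kb and the shortest was 5 bp. Neighbours a few bp apart may be a single stretch divided by the calling. No expected spacing was computed, so grouping was not tested. Joining neighbours less than 10 kb apart left 106 domains on their own and put the other 86 into 37 chains, of which 8 held 3 domains or more. The chain with the most members had 5 domains in 97017 bp, from 14265472 to 14362488, and unlike the solid chain near 18 Mb it was patchy, with 72.0% covered in replicate 1 and 79.4% in replicate 2 and values from 0.54 to 0.74. At 47.6 kb to its right another patchy chain of 3 domains ran from 14410052 to 14479934. A chain of 4 from 15193110 to 15258498 was covered to 82.9% and 87.4%. At the other extreme, 612621 bp from 5627575 to 6240195 held no domain, and 65 of the 205 windows had no domain base. The 20 megabases held from 5 to 13 domains each, fewest from 5000001 to 6000000 and most from 14000001 to 15000000.

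When combined clusters less than 1 kb apart were joined, the 1788 members became 1193 units, of which 222 were wider than 10 kb and 18 wider than 50 kb, against 9 before. The longest joined unit ran from 17904570 to 18041834, over 137265 bp. The next were 125653 bp from 11325064 to 11450716, 125219 bp from 10303170 to 10428388 and 120037 bp from 18157990 to 18278026. Of the 1787 gaps between neighbouring members 595 (33.3%) were under 1 kb.

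Beyond the edge of a domain, mean cover in the replicate lists first rose, and near 100 kb was much the same as beside the edge. Median cover was lower near 100 kb. In the first 10 kb outside the 384 domain edges, replicate 1 covered a mean of 31.9% and replicate 2 34.8%. The mean was highest from 10 to 20 kb outside, at 34.3% and 39.0%. From 90 to 100 kb outside it was 31.7% and 34.4%, against 27.6% and 30.2% for the whole interior. The medians were 20.7% and 28.8% in the first 10 kb and 13.8% and 22.1% in the last. In the combined list the mean was 48.3% in the first 10 kb, 50.2% from 10 to 20 kb and 43.7% from 90 to 100 kb. These flanks overlap one another where domains lie close.

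The 10 members with the highest values among those found in both replicates ran from 3219 to 37549 bp in width, and 9 of them were a single cluster in each replicate. The highest of all, 1.55, belonged to the domain from 9363840 to 9381040, which had 1.96 in replicate 1 and 1.20 in replicate 2. At 6.31 kb to its right, a cluster of 5819 bp from 9387352 to 9393170 had 1.39, and 97.5 kb further a cluster of 9881 bp from 9490716 had 1.26. The second highest, 1.51, lay from 16028342 to 16045378. A domain of 19375 bp from 18823684 to 18843058 had 1.37, with 1.39 in replicate 1 and 1.45 in replicate 2, and was the strongest member in replicate 2 among these 10. Domains of 16619 bp from 19887344 and of 37549 bp from 17551496 had 1.31 and 1.26. A narrow site of 3219 bp from 3192210 to 3195428 had 1.24. The window holding the highest member, from 9300001 to 9400000, was not among the rich ones, and the 12 widest domains had values from 0.61 to 1.15. Across the domains, Spearman's rho between width and value was 0.41, and across all members found in both 0.68.

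Support in the single lists followed width. Of the 1788 members, 676 (37.8%, 95% exact binomial interval 35.6 to 40.1) overlapped a cluster of each replicate by at least 1 bp, against 38.1% over the whole combined list. A further 164 (9.17%) overlapped replicate 1 only and 420 (23.5%) replicate 2 only, and 528 (29.5%) overlapped neither. The shares over the whole list were 10.1%, 22.7% and 29.1%, so the 3L interior was close to them in each class. Members found in both held 76.6% of the bases of the members. Their median width was 5557 bp, and their values had a median of 0.58. Members with no replicate behind them held 8.83% of the bases, and their medians were 1223 bp and 0.38.

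None of the 402 members up to 1.3 kb wide was found in both replicates, which allows a share of up to 0.913% (upper bound of the exact interval). No replicate cluster was narrower than 1301 bp, so such a member could be overlapped only by a cluster wider than itself. From 1.3 to 2 kb 7.98% of 489 were found in both, from 2 to 5 kb 51.2% of 525, from 5 to 10 kb 97.8% of 180, and above 10 kb 100% of 192. Over all sequences the shares in these classes of up to 10 kb were 0.18%, 8.07%, 57.2% and 96.2%. All 599 clusters from 10 to 20 kb and all 306 over 20 kb were found in both there. The rise with width was thus that of the whole list. The widest member found in neither replicate was 3849 bp, and the widest found in replicate 1 only 4691 bp. Between 5 and 10 kb the 4 members not found in both were in replicate 2 only.

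**Figure D5:**
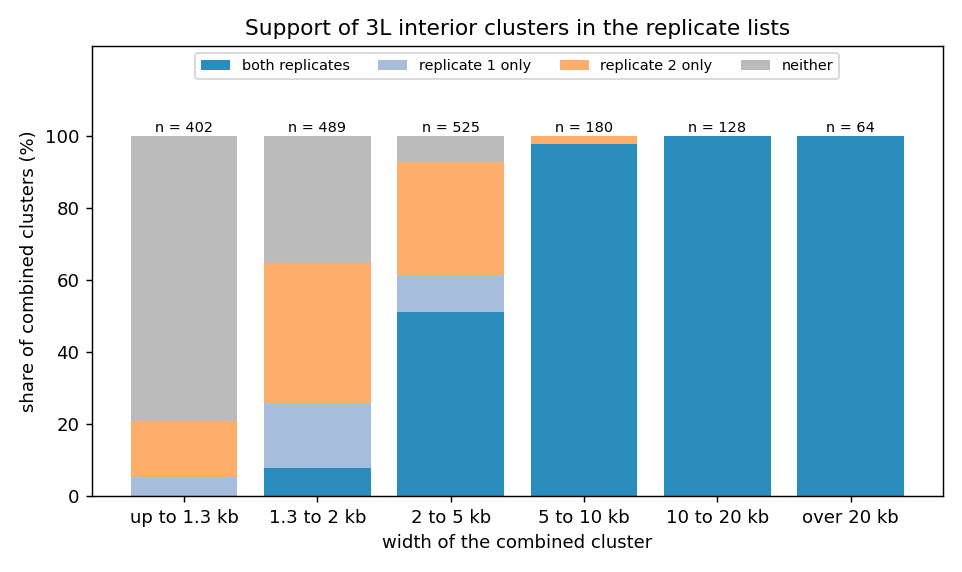
Share of combined clusters of the 3L interior, in 6 classes of width, that overlapped a cluster of both replicates, of replicate 1 only, of replicate 2 only or of neither, with the number of clusters above each bar. Support in both rises from 0% of 402 in the narrowest class to 100% of the 128 and 64 in the widest.

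By value the shares rose too. Wider members had higher values (Spearman's rho of 0.53 across the 1788), and the parts of width and value in this rise were not separated. Of 4 equal groups by value with 447 members each, the lowest had 8.72% found in both, the next 16.3%, then 42.1%, and the highest 84.1%. The highest group had a median width of 7691 bp and the lowest of 1545 bp. Shares by value were taken on the 3L interior only, so they are not set against those over all sequences. An exception was a small set of very short members with very large values. Of the 528 members found in neither replicate, 6 had values from 1.65 to 3.25, above the 1.55 of the highest member found in both, and all 6 were between 1001 and 1145 bp wide. The 3 highest lay from 12869332 to 12870382 (3.25), from 16437008 to 16438008 (2.83) and from 16938882 to 16939894 (2.50). The number of reads behind them is unknown, and their support by a replicate is nil. No member found in a single replicate had a value above 1 in the combined list, whereas 60 found in both and 12 found in neither did.

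Among the members found in one replicate, the highest values were 0.83 from 17792582 to 17793798 in replicate 1 and 0.76 from 18708048 to 18710492 in replicate 2. The next combined values were 0.66 from 20141922 and 0.59 from 7496438 for replicate 1 only. For replicate 2 only they were 0.66 from 2106660 and 0.61 from 18595392. All 6 were under 2.5 kb wide. Seen from the replicates, 83.6% of the 1050 in replicate 1 (exact interval 81.2 to 85.8) overlapped a cluster of replicate 2. In the other direction 66.2% of 1511 did (exact interval 63.8 to 68.6). None of the 172 and 510 single ones was wider than 5632 bp. Only 8 clusters of replicate 1 and 37 of replicate 2 lay outside the combined list, which was made from both replicates, and none of these was shared. These shares and counts were taken on the 3L interior only. Whether they differ from those over all sequences is therefore not known.

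Among 3 equal parts of the interior, cover was lowest in the one on the telomere side. In this part, which ended at 8847852, clusters covered 24.8% in replicate 1 and 26.6% in replicate 2. The next part had 27.9% and 31.0%, and the part nearest the centromere, from 15695705, had 30.0% and 33.0%. The order was the same in each replicate, with steps of 2.04 to 4.36 points. Megabases within a part differed by more than these steps. By the mean of the replicates, the first part held both 11.7% from 5000001 to 6000000 and 35.6% from 3000001 to 4000000. The second held 17.2% from 13000001 to 14000000. The 3 parts held 61, 65 and 66 domains, and 38.3%, 36.2% and 38.9% of their members were found in both replicates.

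Among the interiors of the 5 large arms, cut in the same way, 3L had the largest covered share in both replicates. The nearest was 2R, with 26.4% in replicate 1 and 28.8% in replicate 2, which is 1.30 ± 0.12 points (SD, n = 2) below 3L. The interior of 2L was 4.23 ± 0.36 points lower, 3R 5.74 ± 0.31 and X 8.1 ± 3.5. Relative to 2L, 2R and 3R together, 3L had 1.17 times the covered share in replicate 1 and 1.15 times in replicate 2. Its domain density in the combined list, 9.35 per Mb, was close to the 9.45 of 2R (interval 8.05 to 11.0) and above the 7.26 of 2L (6.10 to 8.58) and the 6.86 of 3R (5.85 to 7.99). X had 6.46 (5.35 to 7.73). The interval of 3L overlaps those of 2R and 2L and lies above those of 3R and X. In the replicate lists the intervals of 3L and 3R overlap, at 6.43 (5.38 to 7.62) and 5.31 (4.43 to 6.32) per Mb in replicate 1 and at 5.84 (4.84 to 6.98) and 4.60 (3.78 to 5.55) in replicate 2, and in replicate 1 2R had more than 3L, 6.59. The interval of X overlaps that of 3L in replicate 1, at 5.59 (4.56 to 6.78), and lies below it in replicate 2, at 3.20 (2.44 to 4.13). Members found in both replicates made up from 37.1% on 3R to 40.0% on X, and 3L lay within that range. The spread of cover over 100 kb windows was 56.3 points on 3L, 54.1 on 2L, 47.3 on 2R, 46.2 on 3R and 43.3 on X. None of these differences was tested.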

How the data were processed

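Enriched clusters of 2 LSD1 ChIP libraries and of their replicate set were analysed, while the 2 input libraries have no list of their own here. The submitters' processing notes name Bowtie 0.12.7. How clusters were called, scaled and pooled over replicates is not given in the sources used here. Per the file headers, positions are of FlyBase release 5. No sequence, gene annotation or gene name of that release was used here. The deposited value of each cluster was read as a log2 ratio, although no header names its unit. Where a value recurred (at least 4 times), its distance from the commonest one was compared with logs of simple ratios (denominator up to 60). A log2 matched for 26 of 45 such values in replicate 1. It matched for 56 of 133 in replicate 2, and for 30 of 122 in the pooled list. The natural log matched for 0. Values were used to describe and rank clusters within a list.

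Python 3.11.15, numpy 2.4.6, pandas 2.3.3, scipy 1.17.1 and matplotlib 3.10.9 were used. Overlap meant at least 1 bp. Covered shares are the bases under clusters, clipped to the interior, windows started at the first base of the interior, and a cluster belongs to the window of its midpoint. Shares carry exact binomial and densities exact Poisson intervals at 95%. The 1 entry marked as depleted was left out. The interval functions were tested on simulated data. Named are the 12 widest and the 10 highest members found in both replicates, the 3 highest of each other class, the 8 richest and 8 poorest windows, their runs and the 8 longest cluster-free stretches. Windows with the largest replicate difference or most clusters, domain chains, flanks, least covered domains, megabases and the 3 equal parts were added after the values were seen. Members, lists and settings were chosen with earlier results of these data known. Alternatives covered the overlap rule, window width and start, domain width, joining, the top 50% by value, the whole arm and each replicate alone.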

Additional observations from a re-analysis of the deposited data

How the results depend on the processing

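A mean of 2 replicates always has each replicate within its SD. Of 25 alternative values for 5 results, 11 moved by no more than the SD or interval of the main value or, for domain density, by no more than 1.5 times, and 14 moved further. With 1 replicate left out, the covered share was 27.6% to 30.2%, its ratio to the other autosome interiors 1.15 to 1.17, and the spread over windows 55.4 to 57.6 points. With the lower 50% of values left out of every list, the covered share fell to 22.2%, the ratio was 1.21, the spread 52.1 points and the share of members found in both 40.4%. On the whole arm the ratio was 1.13. The spread was 67.3 points in windows of 50 kb, 42.6 in windows of 200 kb and 53.4 in windows moved by 50 kb. Found in both were 24.3% with reciprocal overlap of at least 50%, 31.8% with at least 50% of the member covered by each replicate, and 48.8% of members at least 1301 bp wide. Domain density was 18.1 per Mb above 5 kb, 3.12 above 20 kb, 6.43 in the list of replicate 1, 5.84 in that of replicate 2 and 10.81 with clusters under 1 kb apart joined, against a main interval of 8.07 to 10.77. No paired analysis was possible because the input libraries have no cluster list of their own here. The lists hold no read numbers, so what depth limits could not be shown.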
